A study of Homo sapiens with 4 samples.

Results

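A set of 10 genes that encode master transcription factors of the red cell lineage was followed through newly made RNA in K562 cells: GATA1, TAL1, LMO2, LDB1, NFE2, KLF1, GFI1B, ZFPM1, LYL1 and TCF3. All 10 were chosen by name, from 60279 gene identifiers in the human count table, and all 10 passed the filter on low counts that left 17322 tested genes. A production rate was listed for 9 of them, among 11777 genes with a rate. NFE2 has no rate in that list.

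K562 is an established chronic myeloid leukaemia line with erythroid features. It is a single transformed line and not a normal red cell precursor. The cells carried the label UT, were given 1 mM 4-thiouridine for 5 min or for 15 min, and received no other agent that the labels name. Each label time has 2 libraries, made by transient transcriptome sequencing, in which RNA synthesised during the labelling is biotinylated at its thiol groups and captured on streptavidin. Before capture, 15 µg of Drosophila S2 RNA was mixed with 150 µg of total RNA from every sample.

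Human reads per library numbered 4339981 to 5051370 and fly reads 308978 to 897018. Human reads per fly read were 15.8 and 15.3 after 15 min, and 4.84 and 5.84 after 5 min. Nothing in the labels says that the 2 libraries of a label time are separate cultures, so p-values reflect the spread between libraries alone, and that spread may be technical. In bulk libraries, a change in how many cells make an RNA and a change per cell cannot be told apart. Of 8 erythroid markers, including the gamma-globin gene HBG2 and the transferrin receptor gene TFRC, all 8 passed the filter. Their summed level was 2046 to 2207 CPM (counts per 1000000 counts) after 5 min and 1442 to 1481 CPM after 15 min. Markers of other cells were low: summed over the list, after 5 and 15 min, 8 megakaryocyte markers gave 16.2 to 18.2 and 18.4 to 19.8 CPM, 7 granulocyte and monocyte markers 35.0 to 39.2 and 40.2 to 40.2, 5 T cell markers 13.8 to 16.4 and 9.30 to 9.94, 5 B cell markers 2.77 to 4.61 and 10.7 to 11.0, and 4 fibroblast markers 2.30 to 2.56 and 0.792 to 1.48. GP9, PF4, ELANE, CD8A, MS4A1 and LUM had 0 reads in all 4 libraries.

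Erythroid identity rests on a small group of proteins that bind DNA together. GATA1, a zinc finger factor, works with the cofactor encoded by ZFPM1 (FOG1), and joins a complex in which a TAL1 or LYL1 protein pairs with an E protein such as that of TCF3, while LMO2 and LDB1 act as bridges. KLF1 binds CACCC elements of globin and other red cell genes, NFE2 binds the beta-globin locus control region as part of a heterodimer with small MAF proteins, and GFI1B represses its targets through the histone demethylase KDM1A.

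All 10 are protein-coding genes of GRCh38. GATA1 (ENSG00000102145) spans chromosome X from 48786554 to 48794311 on the plus strand. TAL1 (ENSG00000162367) lies on chromosome 1 from 47216290 to 47232220, LMO2 (ENSG00000135363) on chromosome 11 from 33858576 to 33892289, LDB1 (ENSG00000198728) on chromosome 10 from 102107560 to 102120453 and NFE2 (ENSG00000123405) on chromosome 12 from 54292111 to 54301121, all on the minus strand. GFI1B (ENSG00000165702) occupies chromosome 9 from 132944000 to 132991687, and ZFPM1 (ENSG00000179588) chromosome 16 from 88453317 to 88537016, both on the plus strand. The other 3 share chromosome 19, on the minus strand: TCF3 (ENSG00000071564, 1609290 to 1652605), KLF1 (ENSG00000105610, 12884422 to 12887199) and LYL1 (ENSG00000104903, 13099033 to 13103161). KLF1 and LYL1 are separated by 211833 bases that hold 16 annotated genes, 8 of them protein-coding. Gene bodies ranged from 2778 bases in KLF1 to 83700 in ZFPM1, and merged exons covered 75.5% of LYL1 and 7.30% of ZFPM1.

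Promoter windows of 300 bases, from 250 before to 50 after an annotated start, were found for 8 of the 10 genes in the RefSeq table (GRCh38.p14), with a pair of windows each for TAL1 and GFI1B. LMO2 and NFE2 had no entry. The windows were searched on both strands for the GATA word AGATAA and its 3 variants with T as the first base, G as the last base or both, which 24.97% of 35116 promoter windows of that length hold. TAL1, KLF1, GFI1B and LYL1 held at least 1 such word, and GATA1, LDB1, ZFPM1 and TCF3 none. The windows below set the neighbours KLF1 and LYL1, each with 2 words, beside GATA1 and TCF3, the genes with the most negative change in share of labelled RNA described further on. Each reads 5′ to 3′ on the gene's strand, and capitals mark a GATA word or its reverse complement.
KLF1, chr19:12887152-12887451, minus strand: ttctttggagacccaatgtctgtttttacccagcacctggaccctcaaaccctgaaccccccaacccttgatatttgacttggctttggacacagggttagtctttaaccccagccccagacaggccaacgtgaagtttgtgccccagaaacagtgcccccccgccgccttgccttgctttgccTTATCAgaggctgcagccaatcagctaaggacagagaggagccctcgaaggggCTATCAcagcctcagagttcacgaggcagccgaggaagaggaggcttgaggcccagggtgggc
LYL1, chr19:13102809-13103108, minus strand: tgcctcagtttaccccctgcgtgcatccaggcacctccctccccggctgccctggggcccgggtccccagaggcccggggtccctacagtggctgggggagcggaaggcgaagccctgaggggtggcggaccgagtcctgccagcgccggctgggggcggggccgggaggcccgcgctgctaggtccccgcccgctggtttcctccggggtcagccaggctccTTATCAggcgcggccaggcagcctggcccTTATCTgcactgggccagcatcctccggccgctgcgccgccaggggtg
GATA1, chrX:48786340-48786639, plus strand: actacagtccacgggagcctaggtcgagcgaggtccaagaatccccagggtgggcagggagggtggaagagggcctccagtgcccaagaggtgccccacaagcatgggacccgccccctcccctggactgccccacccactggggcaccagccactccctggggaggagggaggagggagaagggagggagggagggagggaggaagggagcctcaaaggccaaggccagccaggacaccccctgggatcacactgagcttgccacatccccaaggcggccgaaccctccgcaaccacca
TCF3, chr19:1652566-1652865, minus strand: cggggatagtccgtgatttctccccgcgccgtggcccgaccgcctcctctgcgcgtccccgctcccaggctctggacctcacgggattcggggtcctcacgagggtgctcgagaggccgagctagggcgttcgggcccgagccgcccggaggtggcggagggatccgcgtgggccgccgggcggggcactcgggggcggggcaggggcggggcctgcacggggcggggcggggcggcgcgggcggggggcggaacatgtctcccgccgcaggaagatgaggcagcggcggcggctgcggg

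In KLF1 the words begin 66 and 13 bases before the start, and in LYL1 they begin 27 bases before it and at base 3 after it. The KLF1 window is 57.0% G and C with 6 CpG dinucleotides, and the GATA1 window 67.7% with 7. ZFPM1 and TCF3 stand at the other end, with 83.0% and 78.3% G and C and 47 and 43 CpG dinucleotides, where the median window has 58.7% and 14. The CACCC-type word CCNCNCCC, held by 56.2% of all windows, occurred 9 times each in ZFPM1 and TCF3, 4 times each in GATA1, LDB1 and LYL1, and not in KLF1. A match describes the letters of the window and not a bound site.

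The first question was how much labelled RNA each factor gene gave. Levels were compared between genes as CPM per kilobase of merged exons, where CPM are reads scaled to 1000000 with TMM factors (trimmed mean of M values). NFE2 gave the most labelled RNA per length and ZFPM1 the least, a span of over an order of magnitude. NFE2 stood at 131 ± 3.36 CPM per kb after 5 min and 128 ± 2.71 after 15 min (mean ± SD, n = 2 each), above 98.8% of 17101 ranked genes. GATA1 came next with 107 and 103 CPM per kb in the 5 min libraries and 69.3 and 66.5 in the 15 min libraries. KLF1 followed with 58.8 and 66.4 after 5 min and 59.1 and 59.1 after 15 min. Over the 4 libraries GATA1 ranked at the 97.9th and KLF1 at the 96.7th percentile.

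The bridging protein genes and the TAL1-type genes formed the middle of the order. LDB1 had 42.7 ± 0.341 CPM per kb after 5 min and 46.5 ± 0.444 after 15 min, and LYL1 40.3 ± 0.00269 and 41.6 ± 0.686. LMO2 had 30.9 ± 0.248 and 27.3 ± 1.40, and TAL1 26.6 ± 1.86 and 25.6 ± 0.929. Per exonic kilobase LYL1 thus gave 1.44 to 1.69 times the labelled RNA of its paralog TAL1 in the 4 libraries, and per kilobase of gene span 3.05 to 3.56 times. The E protein gene TCF3 had 22.1 and 21.8 CPM per kb after 5 min and 13.1 and 14.1 after 15 min. The repressor gene GFI1B, at 7.18 ± 0.0857 and 6.52 ± 0.291, and ZFPM1, at 6.70 ± 0.920 and 4.71 ± 0.572, closed the order and lay below the median of the ranked genes.

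**Figure D1:**
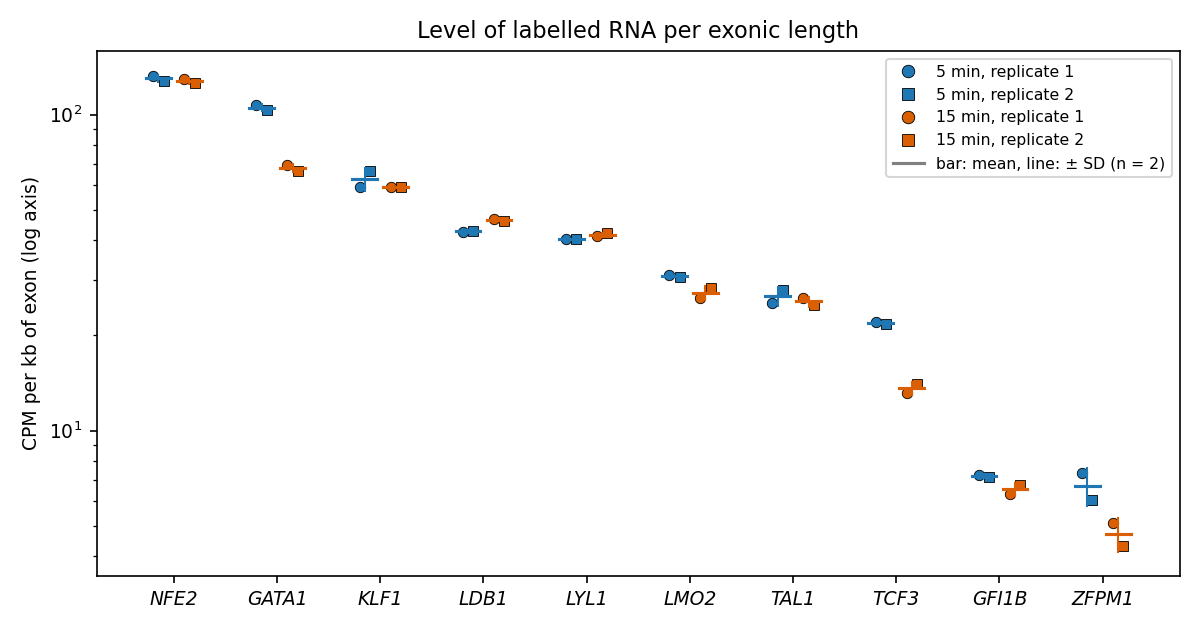
Level of labelled RNA for each factor gene, in CPM per kilobase of exon on a log axis, with the genes ordered by their mean over 4 libraries. Points are libraries, horizontal bars are means and vertical lines ± SD (n = 2); NFE2 is highest in every library, and GATA1, TCF3 and ZFPM1 show the widest gap between label times.

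Neighbours in this order did not overlap between their libraries within a label time, except GFI1B and ZFPM1 after 5 min (7.24 and 7.12 against 7.35 and 6.05 CPM per kb). LMO2 and TAL1 all but met after 15 min, at 26.3 and 28.3 against 26.3 and 24.96 CPM per kb. The order depended on the length used. Per kilobase of the whole gene span it read NFE2, KLF1, LYL1, GATA1, LDB1, TAL1, LMO2, TCF3, GFI1B and ZFPM1, so that the compact genes KLF1 and LYL1 moved ahead of GATA1. Whether reads were counted in exons or over whole genes was not given in the sources used here.

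The second question was which factors took a larger or smaller share of labelled RNA after 15 min than after 5 min, that is, changed relative to the other human genes once each library was scaled to its own human reads. GATA1, ZFPM1 and TCF3 fell, and none of the 10 rose. The other 7 did not pass the test, although LDB1 did (0.23, edgeR adjusted p = 0.00819) when libraries were scaled to total counts without TMM factors, a scaling that also turned the small negative values of TAL1, NFE2 and KLF1 positive. Of all tested genes 38.1% were called, 21.3% lower and 16.8% higher, and for protein-coding genes 30.5% and 13.7%, so 3 of 10 lower is near the background for coding genes. The median log2 fold change was -0.11 over the 10 genes, -0.08 over 11547 tested protein-coding genes and 0.03 over all tested genes.

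Among the GATA factor and its cofactor, GATA1 had 161 and 155 CPM after 5 min and 104 and 99.8 CPM after 15 min. Both 15 min libraries lay below both 5 min libraries by far more than the spread within a label time. The log2 fold change in share was -0.63 ± 0.0743 (SE, edgeR adjusted p = 5.5e-16), below that of all but 7.90% of tested genes. ZFPM1, with 128 to 188 reads per library the thinnest of the set, had 44.9 and 36.9 CPM after 5 min and 31.2 and 26.3 CPM after 15 min. Its label times did not overlap either, but the gap between the nearest libraries was small. ZFPM1 fell by 0.50 on the log2 scale (SE 0.129, edgeR adjusted p = 0.000513), with a 95% interval from -0.75 to -0.25.

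TCF3 changed most. It had 134 and 133 CPM after 5 min and 79.8 and 85.6 CPM after 15 min, a log2 fold change of -0.69 ± 0.0786 (SE, edgeR adjusted p = 5.75e-17). For TAL1, LYL1, LDB1 and LMO2, which encode other members of the complex, the change did not pass the test. TAL1 had 144 and 159 CPM after 5 min and 150 and 142 CPM after 15 min, so the label times overlapped (log2 fold change -0.06, 95% interval -0.19 to 0.08, edgeR adjusted p = 0.572). The TAL1 count is uncertain, since 14.8% of its exonic bases are shared with the antisense gene AL135960.1, which had 320 and 316 reads after 5 min and 524 and 459 after 15 min; its part in the TAL1 value was not tested. LYL1 gave 126 and 126 CPM after 5 min and 128 and 131 CPM after 15 min (0.05, interval -0.10 to 0.19, adjusted p = 0.67, edgeR). LDB1 had 118 and 120 CPM after 5 min and 131 and 129 CPM after 15 min, the most positive change of the 10, which did not pass (0.12, interval -0.02 to 0.27, adjusted p = 0.184, edgeR). For LDB1 and LYL1 both 15 min libraries lay above both 5 min libraries, as they did for 34.6% of all tested genes.

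LMO2, the other bridge, had 96.5 and 95.4 CPM after 5 min and 81.7 and 87.9 CPM after 15 min. The label times were separate, but the change missed the threshold (log2 fold change -0.18, 95% interval -0.34 to -0.02, edgeR adjusted p = 0.0762). It passed (-0.25, edgeR adjusted p = 0.0483) on leaving out the second 15 min library. The intervals of TAL1, LYL1, LDB1 and LMO2 all lie above the interval of TCF3, which runs from -0.84 to -0.54. No test compared one gene's change with another's.

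The 3 lineage factors outside the complex also missed the threshold. KLF1 had 94.8 and 107 CPM after 5 min and 95.2 and 95.3 CPM after 15 min (log2 fold change -0.09, 95% interval -0.24 to 0.07, edgeR adjusted p = 0.426). NFE2, with the most reads of the set, had 328 and 316 CPM after 5 min and 321 and 311 CPM after 15 min (-0.03, interval -0.15 to 0.09, adjusted p = 0.771, edgeR). GFI1B had 44.2 and 43.4 CPM after 5 min and 38.6 and 41.1 CPM after 15 min (-0.14, interval -0.37 to 0.09, adjusted p = 0.368, edgeR). The narrow NFE2 interval covers changes of at most 0.15 on the log2 scale in either direction, while the wider GFI1B interval leaves room for a larger fall. Across the set, 5 genes had both 15 min libraries below both 5 min libraries (33.0% of all tested genes), 2 had them above, and 3 overlapped.

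**Figure D2:**
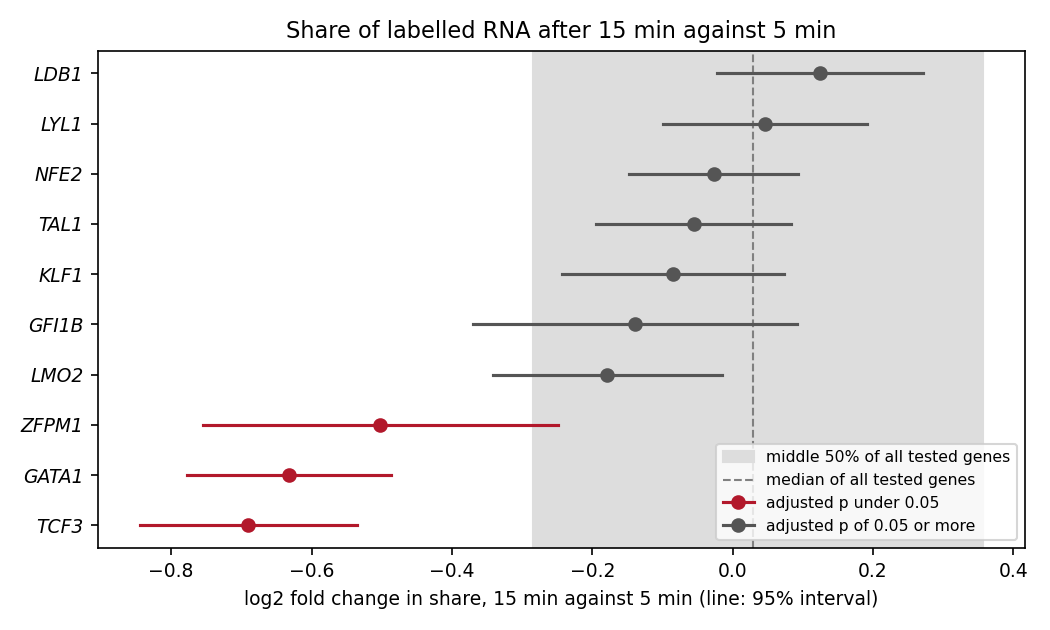
Log2 fold change in share of labelled RNA, 15 min against 5 min, for each factor gene, with the 95% interval of the edgeR fit as a line. The shaded band spans the middle 50% of all tested genes (-0.28 to 0.36) and the dashed line their median (0.03); TCF3, GATA1 and ZFPM1 lie left of the band and passed the test.

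The fall of GATA1 is also seen in its ratio to the other factor genes within each library. Per kilobase of exon, GATA1 gave 1.82 and 1.56 times the labelled RNA of KLF1 in the 5 min libraries and 1.17 and 1.12 times in the 15 min libraries. Against LDB1 the ratios were 2.52 and 2.41 after 5 min and 1.48 and 1.44 after 15 min. Against TAL1 they were 4.23 and 3.70, then 2.64 and 2.66. For 7 of the other 9 genes, both 15 min ratios of GATA1 to the gene lay below both 5 min ratios, as they did for 81.6% of all other tested genes. The count therefore restates the fall of GATA1 and is not particular to these genes. The exceptions were the other genes that fell: GATA1 to ZFPM1 was 14.6 and 17.1 after 5 min and 13.6 and 15.5 after 15 min, and GATA1 to TCF3 was 4.85 and 4.74, then 5.28 and 4.72. These ratios are taken within a library and do not depend on the scaling between libraries.

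Among the windows described above, the 3 genes that fell held no GATA word, and all 4 genes with such a word, TAL1, KLF1, GFI1B and LYL1, missed the threshold. LDB1 held none and missed it too. Since only 24.97% of all promoter windows hold such a word, windows without one are the common case. Each window also covers a single annotated start, while TCF3 has 17 annotated transcript starts. The windows of LDB1, LYL1 and GFI1B, and the second window of TAL1, lie wholly inside the gene. TAL1 and GFI1B had a pair of windows each in which a word could be found. The comparison was not planned and was made with the changes in share known. It describes 8 genes, too few to link words to share, and no such link was tested.

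The third question was how much labelled RNA of each factor accumulated between 5 and 15 min on the scale of the added fly RNA. All 10 genes rose, as did 98.4% of tested genes, so the call itself separates nothing. The fitted folds ranged from 1.94 for TCF3 to 3.42 for LDB1, with a median of 2.90 where all tested genes had 3.20 and coding genes 2.96. An error in the fly totals would move every gene together. Where it differs between the libraries of a label time, it widens the SE of each gene. An error common to a whole label time is not measured by the p-value of a gene. Values here are reads of the gene per 100000 fly reads in the same library.

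GATA1 went from 75.0 and 86.2 reads per 100000 fly reads after 5 min to 169 and 157 after 15 min. Its fold was 2.03 (95% interval 1.62 to 2.54, edgeR adjusted p = 1.41e-09), and each 15 min library set against each 5 min library gave between 1.82 and 2.25. TCF3 went from 62.7 and 73.6 to 130 and 135, a fold of 1.94 (interval 1.55 to 2.44, adjusted p = 1.42e-08, edgeR). These and ZFPM1, which went from 21.0 and 20.5 to 50.8 and 41.4 (2.22-fold, interval 1.72 to 2.88, adjusted p = 2.16e-09, edgeR), were the genes with folds under 2.5. The first quartile of the fold over all tested genes was 2.57, so all 3 lay below it. Both scales rest on the same human counts and differ only in how each library is scaled. The genes stand in the same order on both, so the low place of these 3 repeats the share result and is no independent support.

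The other 7 genes rose by 2.77 to 3.42-fold. LMO2 gave 2.77-fold (45.0 and 53.0 to 133 and 139), GFI1B 2.85-fold (20.6 and 24.1 to 62.8 and 64.7) and KLF1 2.95-fold (44.3 and 59.5 to 155 and 150). TAL1 gave 3.01-fold (67.3 and 88.4 to 244 and 224) and NFE2 3.08-fold (153 and 176 to 522 and 491). At the top, LYL1 gave 3.24-fold (58.8 and 69.9 to 209 and 207) and LDB1 3.42-fold (55.3 and 66.5 to 213 and 203). Among the 5 min libraries, replicate 2 lay above replicate 1 on this scale in 9 of the 10 genes and below it for ZFPM1. All human reads per fly read differed the same way, 5.84 in replicate 2 and 4.84 in replicate 1. The shift is therefore one of the whole library and not particular to these genes.

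**Figure D3:**
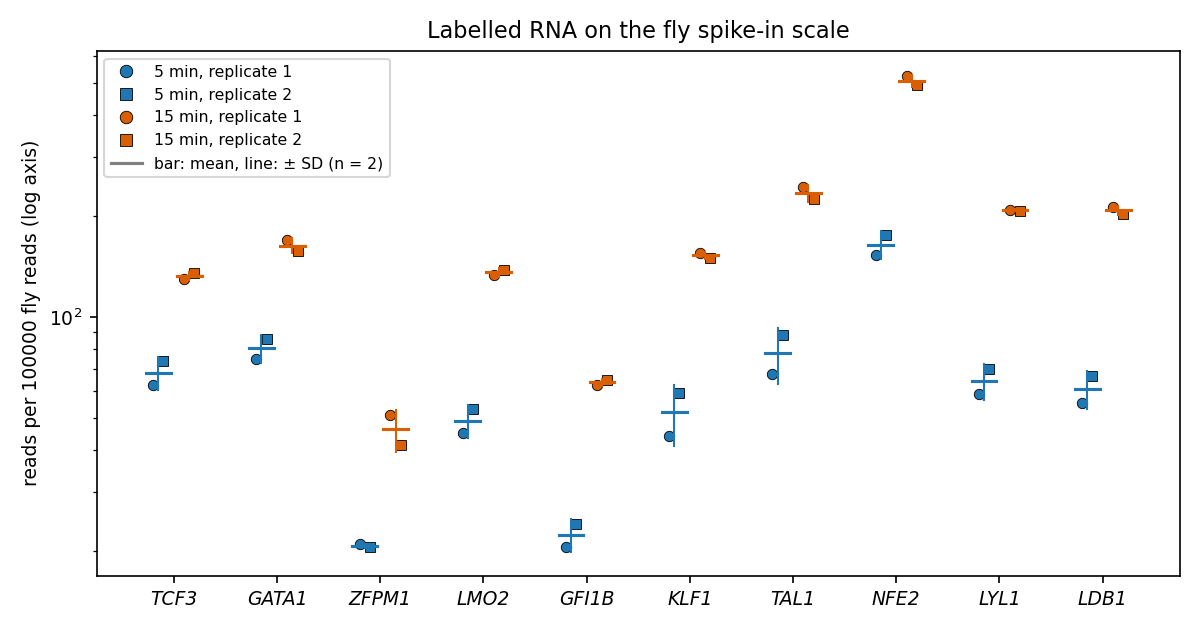
Reads of each factor gene per 100000 fly reads in the same library, on a log axis, with genes ordered by their fitted fold from lowest (TCF3, 1.94) to highest (LDB1, 3.42). Points are libraries, bars are means and lines ± SD (n = 2); both 15 min libraries lie above both 5 min libraries for all 10 genes.

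The authors deposited 1 production rate per gene, with no error, time unit or scale, so only its order can be read. Among 10806 tested genes with a rate, KLF1 had the highest authors' rate of the set, 0.122, at the 97.4th percentile. GATA1 (authors' rate 0.100) and LYL1 (0.0960) followed at percentiles 96.6 and 96.3. LDB1 (0.0519), TAL1 (0.0431) and LMO2 (0.0365) lay at percentiles 89.9, 86.5 and 82.9, and TCF3 (0.0190) at 62.5. ZFPM1 (0.0124) lay just below the median of the tested genes, at percentile 48.5, and GFI1B (0.00996) further below it, at 41.2.

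KLF1 ranked above GATA1 by the rate, as it did per kilobase of gene span, and below GATA1 per kilobase of exon. Across the 9 genes with a rate, Spearman's correlation of the rate with the level was 0.93 per exonic kilobase and 0.97 per kilobase of span. Over 10737 genes it was 0.89 and 0.78. These are descriptions across genes, which are not independent replicates. Rate and level may rest on the same libraries, since the source of the rates was not given in the sources used here.

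**Figure D4:**
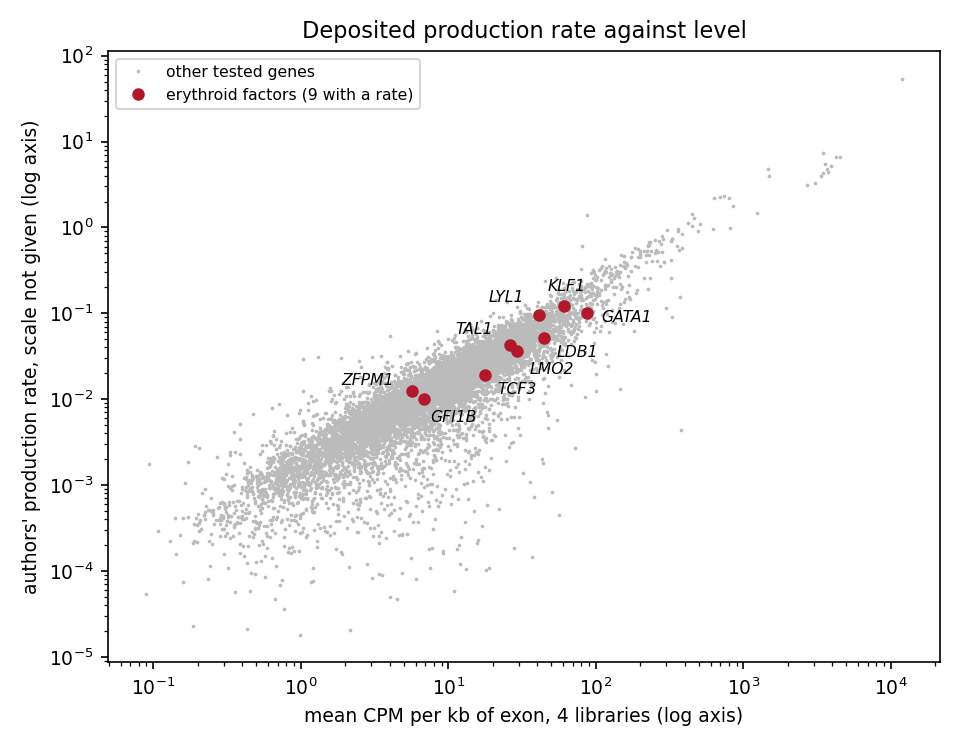
The authors' production rate against the mean level of labelled RNA per kilobase of exon, both on log axes, for tested genes with a rate (grey) and the 9 factor genes with one (red). The factor genes lie within the cloud of other genes, with KLF1, GATA1 and LYL1 at its upper end and GFI1B and ZFPM1 near its middle.

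The genes nearest to GATA1 over log2 CPM in the 4 libraries, by Euclidean distance, were MTHFD1, a folate cycle enzyme gene (distance 0.10), SRM, which encodes spermidine synthase (0.11), and RFC4, a replication factor C subunit gene (0.13). Their log2 fold changes in share were -0.62, -0.63 and -0.52, close to that of GATA1 because they were chosen on the same CPM values, so no test is given.

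Partners and cofactors of the 10 proteins, such as the NuRD and CoREST corepressors, were also measured. Of 32 listed genes 31 were tested. Their median log2 fold change was -0.29, and 18 fell and 1 rose, where 30.5% and 13.7% of coding genes did. CHD4, the remodelling ATPase of NuRD, fell by 0.74 on the log2 scale (edgeR adjusted p = 7.88e-32), and KDM1A, the demethylase through which GFI1B represses, by 0.64 (adjusted p = 2.1e-20, edgeR). The histone-binding NuRD subunit gene RBBP4 fell by 0.48 and GATAD2A, another NuRD subunit, by 0.29. The 1 gene that rose was MAFG (0.25), a small MAF partner of NFE2, named after its value was seen. Its call was lost on leaving out the first 5 min library or the second 15 min library. DESeq2, which calls fewer genes, called 11 of the list lower and 0 higher. Over all 17322 tested genes it called 2370 lower and 923 higher.

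For other haematopoietic factors the calls went both ways. Of 29 listed genes 22 were tested, 6 rose and 4 fell, beside 13.7% of coding genes called higher and 30.5% lower, and the median log2 fold change was 0.02. MYB and NFE2L2, a relative of NFE2, had log2 fold changes of 0.05 and 0.05 (edgeR adjusted p = 0.535 and 0.596). STAT5A and STAT5B, which relay erythropoietin receptor signals, fell by 0.71 and 1.01 on the log2 scale. Without replicate 1 of the 15 min group 3 genes of the list rose, without replicate 2 of the 5 min group 2, and DESeq2 called 2 higher.

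Erythroid target genes of these factors, such as globin, haem synthesis and red cell membrane genes, lost share in 25 of 41 tested cases (48 listed) and gained it in 2, where 30.5% of coding genes were called lower and 13.7% higher, with a median of -0.39. This direction was already seen in earlier work on these libraries and is no independent support. HBE1 (epsilon-globin) fell by 1.47 and HBG2 (gamma-globin) by 1.44 on the log2 scale, and the HBG2 count is uncertain because of its close copy HBG1. TFRC fell by 0.37, ANK1, which encodes ankyrin of the red cell skeleton, by 0.30, and UROD, a haem synthesis enzyme gene, by 0.28. The 2 genes that gained were PPOX and KEL, named after their values were seen. Without replicate 2 of the 5 min group, and with DESeq2, 0 genes of the list were higher, and leaving out either 15 min library left 1.

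Counts of some factor genes can include reads of overlapping genes, because the strand setting of the counting was not given in the sources used here. Beside the 845 exonic bases that TAL1 shares with AL135960.1, GFI1B shares 349, 5.72% of its exons, with TSC1 on the opposite strand, which had 176 to 231 reads per library. GATA1, LDB1, KLF1 and LYL1 overlap no other annotated gene. LMO2, NFE2, ZFPM1 and TCF3 share no exonic base with one but overlap others outside exons, which matters if reads were counted over whole genes. AC132216.1, which overlaps LMO2, had 60 and 59 reads after 5 min and 93 and 90 after 15 min. AC078778.2, which overlaps NFE2, had 76 to 117 reads per library, and the genes overlapping ZFPM1 or TCF3 had at most 18 each.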

How the data were processed

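The 10 genes and the gene lists were chosen with earlier results of these data known. For 4 libraries the authors deposited unnormalized read counts of each human and fly gene. They also deposited 1 production rate per gene, a score whose scale no source gives. Builds hg38 and dm6 and the programs STAR 2.7, Subread 2.0.1, featureCounts, edgeR and bcl2fastq 2.17.1.14 are named, without roles, in the submitters' processing notes.

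Symbols, positions and exon lengths came from GENCODE 29 (GRCh38), which holds 56590 of the 60279 identifiers. Share was tested with edgeR 4.0.16 (filterByExpr, minimum count 10, library sizes over tested genes, TMM factors, robust quasi-likelihood fit), and accumulation with fly read totals as library sizes. P-values were two-sided, adjusted by Benjamini-Hochberg over 17322 genes at 0.05. SE came from the F statistic, which shares spread across genes. The fits were tested on simulated data. Replicate libraries differed beyond counting noise: chi-square divided by its degrees of freedom was 1.70 at 15 min and 1.55 at 5 min. Alternatives included DESeq2 1.42.0, no filter, other scalings, each library left out and a replicate block. Named genes were the 10 factors, for each list the 3 highest by mean CPM and the 2 with the smallest p, and the 3 genes nearest to GATA1 in log2 CPM (prior count 2).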

Additional observations from a re-analysis of the deposited data

How the results depend on the processing

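GATA1, ZFPM1 and TCF3 kept their fall in share under all 9 alternatives, and all 10 genes their rise on the fly scale under all 8. For ZFPM1 the log2 fold change ranged from -0.65 to -0.39 and the highest adjusted p was 0.0466 (DESeq2). LMO2 passed (-0.25, adjusted p = 0.0483) when the 15 min group lost its replicate 2. Scaling to total counts moved the median of all genes from 0.03 to 0.13 and the calls from 2915 higher and 3692 lower to 4253 and 2792, 60.4% higher in place of 44.1%. It turned TAL1 to 0.049, NFE2 to 0.078 and KLF1 to 0.020, none of which passed, and called LDB1 higher (0.23, adjusted p = 0.00819), so that 1 of the 10 was higher, and 5 of the partner list. Leaving out each library in turn gave TAL1 -0.15 to 0.0078, the latter without replicate 2 of the 5 min group. DESeq2 called 923 genes higher and 2370 lower, 28.0% higher. Without replicate 1 of the 15 min group 1795 genes were higher, and without replicate 2 of the 5 min group 1729.

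Leaving out 1 library in turn gave 0 to 1 partner genes higher, 2 to 6 other haematopoietic factors higher and 0 to 2 target genes higher. DESeq2 gave 0, 2 and 0 for these, and 11 partner genes lower. Levels per kilobase of span put 6 of the 10 genes at another rank, and the order within replicate 1 of the 5 min group differed for 2, GFI1B and ZFPM1.

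The labels do not say whether same-numbered libraries share more than a number. Their deviations from the group means correlated at 0.05. Counting noise in genes with few reads lowers this value, so it cannot exclude a pairing. With the replicate number as a block, 3080 genes were higher and 3878 lower, 4 of the 10 genes fell, LMO2 passing (-0.18, adjusted p = 0.0474), and 2 partner genes were higher. Depth limits ZFPM1 and GFI1B most, with at most 200 reads in any library.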
